A study of Mus musculus with 6 samples.

Results

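WNT pathway genes were followed in mouse embryonic stem (ES) cells after depletion of BRG1. The set holds every gene name on the array that matches the families of WNT ligands (Wnt), Frizzled receptors (Fzd), Dickkopf (Dkk) and secreted Frizzled-related (Sfrp) antagonists, Dishevelled (Dvl) and Groucho/TLE proteins (Tle), with Lrp5, Lrp6, Ctnnb1, Apc, Axin1, Gsk3b, Tcf7, Tcf3, Tcf7l2, Wif1, Kremen1, Porcn, Nkd1 and Nkd2. Its members are picked by gene name, though the set was proposed with earlier results of these data known, and it comprises 58 of the 27962 gene names on the array, measured by 88 of its 41174 probes; 1 ligand gene that matches the naming pattern was not analysed here. The file name Tcf3 belongs, by its RefSeq accession, to Tcf7l1, the TCF family member long called Tcf3 in ES cell work, and it is called Tcf7l1 below.

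Total RNA was taken from cultured ES cells of an F1 129 and C57BL/6 background kept for 48 h with BRG1 siRNA or with the scrambled control, and 500 ng was labelled with Cy3 and hybridised to single-colour Agilent arrays, 3 per group. Smarca4 encodes BRG1, the motor protein of SWI/SNF chromatin remodelling complexes. The labels do not say whether the 3 arrays of a group came from separate cultures, so the p-values measure the spread between arrays, which may be technical. RNA was made from the whole culture, so fewer cells of a type and less RNA per cell cannot be told apart.

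WNT proteins are lipid-modified signals that bind a Frizzled receptor together with an LRP5 or LRP6 co-receptor. Binding holds back the destruction complex of APC, AXIN and GSK3, so that β-catenin accumulates, enters the nucleus and turns TCF/LEF target genes on. Without a signal, TCF proteins sit on these genes with Groucho/TLE co-repressors. In mouse ES cells this route is known to favour self-renewal, largely by lifting the repression exerted by TCF7L1.

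Between 60.9% and 75.3% of spots per array were well above background. All 3 Smarca4 probes were lower on every BRG1 siRNA array than on any control array: the brightest stood at 65.8% of control (adjusted p = 0.00365) and the others at 54.7% and 66.2%. The 11 ES cell markers found on the array were above background on all 6 arrays; 3 rose (Nanog, Klf4 and Utf1) and 1 fell (Pou5f1), and their summed level (in multiples of the array's 75th percentile) was 628 to 636 in control arrays and 609.8 to 642 in BRG1 siRNA arrays. Of 18 fibroblast markers 15 were above background on all 6 arrays, and Lum and Pdgfra were too dim to be tested. Of the 16 tested 7 fell and 0 rose, where the shares of all genes were 13.4% and 9.87%. Their summed level was 68.1 to 71.3 in control arrays and 62.6 to 63.4 in BRG1 siRNA arrays. Of 9 trophoblast markers tested 2 rose (Hand1 and Tfap2c) and 2 fell (Cdx2 and Eomes). The sum of the 9 was 76.6 to 88.0 in control arrays and 88.7 to 93.5 in BRG1 siRNA arrays. Most of it came from the keratin genes Krt8 and Krt18, which neither rose nor fell past the threshold. Whether such cells were present, and their part in the results below, was not tested. The arrays lay on 2 slides. Slide 1 held the 3 control arrays and BRG1 siRNA replicate 1, and slide 2 held BRG1 siRNA replicates 2 and 3, so a fit with slide as a block takes each change from BRG1 siRNA replicate 1 alone against the controls.

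WNT pathway genes changed in both directions, mostly by little. Levels below are log2 of the processed signal relative to the array's 75th percentile, and a change is the mean of the 3 BRG1 siRNA arrays minus the mean of the 3 control arrays on that scale, given with its standard error. A gene was tested through its brightest probe where all 3 arrays of a group, or of both, detected that probe well above background, and it is said to have risen or fallen where the adjusted p was under 0.05 over all genes tested. Of the 58 genes, 51 were tested, and 26 of these passed (51.0%), against 23.3% of all 17758 genes tested. The direction was down for 18, where the share of all genes was 13.4%, and up for 8, where it was 9.87%. Dkk2, counted among the 18, was tested on account of its control arrays alone. Control and BRG1 siRNA arrays did not overlap for 31 of the 51 genes (60.8%), compared with 44.0% of all genes. The median change of the 51 genes was -0.04, the same to 2 decimals as that of all genes tested. Of the 26 genes, 20 changed by less than 1.5-fold, as did 3433 of the 4139 that passed among all genes. Scaling the arrays on the 8 spike-in probes instead raised the median of all genes to 0.16; 17 members then passed, of which 70.6% were higher, against 30.8% as reported, and among all calls the share that was higher went from 42.3% to 84.1%. Directions below are therefore relative to the bulk of genes on each array. None of the 26 genes changed sign in any of the 20 other settings in which it was tested. Dkk2 was tested in 19, not in the fit of probes above background on all 6 arrays. Fits with a block or with fewer of the same arrays could hardly turn a sign, since the groups of these genes did not overlap.

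**Figure D1:**
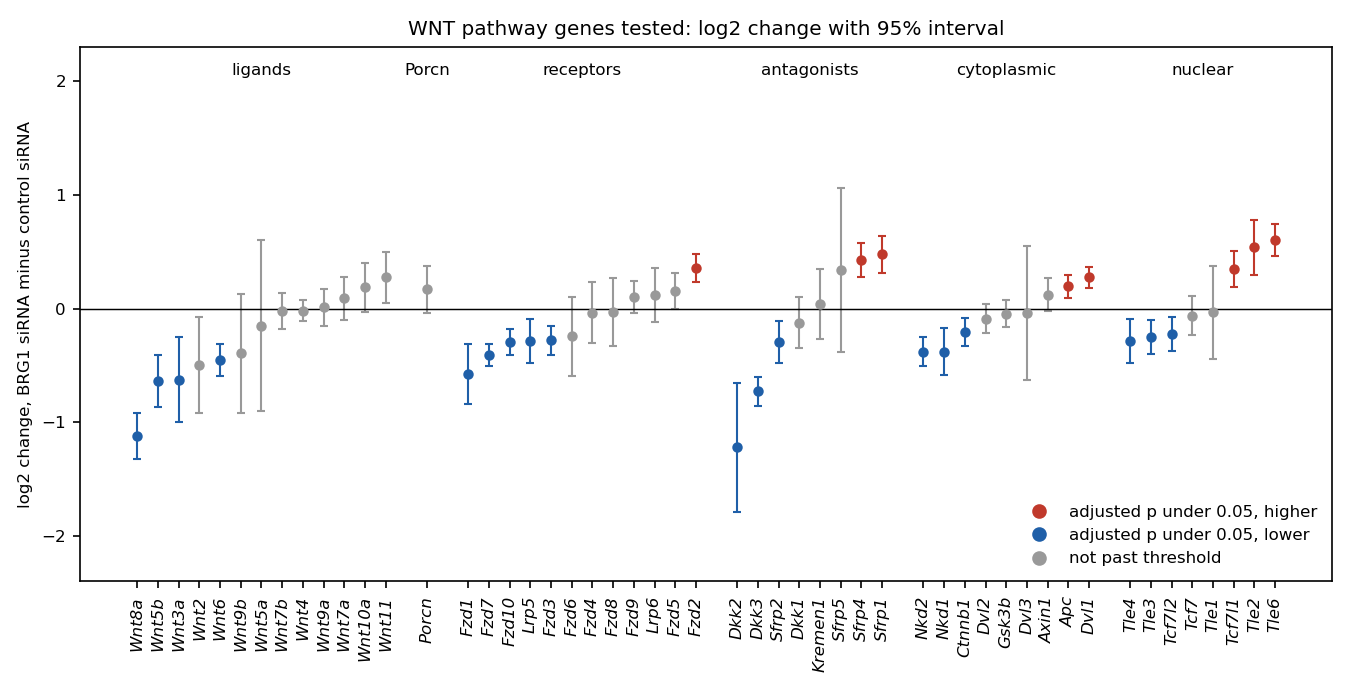
The log2 change of each of the 51 tested WNT pathway genes (BRG1 siRNA minus control siRNA, 3 arrays each) is plotted with its 95% interval, grouped by role along the horizontal axis. The 18 genes that fell (blue) lie in every group except Porcn, and the 8 genes that rose (red) reach 0.60 at most. None of the 13 tested ligands rose, where the share of all genes was 9.87%.

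The 18 WNT ligand genes gave 4 that fell and 0 that rose among 13 tested (30.8% passed, against 23.3% of all genes). Among all genes tested 13.4% fell and 9.87% rose, and 0 of 13 lies near the latter share. Wnt8a, a ligand of the early embryo that acts through β-catenin, fell the most. Its log2 level was -2.14, -1.84 and -1.93 on the control arrays and -3.06, -3.08 and -3.13 on the BRG1 siRNA arrays, a 2.18-fold decrease (change -1.12 ± 0.083, adjusted p = 0.00167). All 3 BRG1 siRNA arrays lay together, far below the lowest control. Wnt3a, the ligand most often used to drive β-catenin signalling in culture, had log2 levels of -1.80, -2.14 and -1.98 in controls and -2.73, -2.75 and -2.31 with BRG1 siRNA (change -0.63 ± 0.15, adjusted p = 0.0351). The groups did not overlap, but replicate 3 of the BRG1 siRNA group came close to the controls. The call on Wnt3a was lost in 5 of the 6 fits that left out 1 array, all but the one without that replicate 3, with adjusted p from 0.0705 to 0.115, and also with slide as a block (-0.76, adjusted p = 0.10).

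Wnt5b, a ligand that mostly signals without β-catenin, read -2.24, -2.22 and -2.13 in controls and -3.03, -2.76 and -2.72 with BRG1 siRNA on its brighter probe (change -0.64 ± 0.093, adjusted p = 0.00823). Its 2 probes moved alike. The second, at chr6:119465444-119465503 on the minus strand of mm7, the build of the array's own coordinates, gave -0.59 with an adjusted p of 0.0572 in the fit of single probes. Wnt6, a ligand of epithelia, read -0.39, -0.52 and -0.57 in controls and -0.97, -0.93 and -0.93 with BRG1 siRNA (change -0.45 ± 0.057, adjusted p = 0.00562). The 3 BRG1 siRNA values were nearly equal and the lowest control stood well above them; this call was lost with spike-in scaling. The second Wnt6 probe changed by -0.20 (95% interval -0.46 to 0.06), and its groups overlapped. The brighter Wnt6 probe lies at chr1:75024567-75024626 on the plus strand of mm7 and carries AATAAA, the usual polyadenylation signal, near its end. The second Wnt5b probe is printed whole and the brighter Wnt6 probe by its bases 29 to 58, with that hexamer in capitals. They are shown because both ligands kept their calls whichever array was left out. The Wnt5b call rests on its brighter probe, which is not printed.
Wnt5b: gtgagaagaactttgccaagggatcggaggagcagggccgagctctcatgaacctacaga
Wnt6: gagtttagtatcAATAAAgacatttaaatc

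The other 9 tested ligands did not pass. Wnt2 had the largest difference among these, -0.50 (95% interval -0.92 to -0.08, adjusted p = 0.0884). Wnt11, known from gastrulation movements, had a change in the other direction of 0.27 (0.05 to 0.50, adjusted p = 0.0816), with no overlap between the groups, and was the 1 ligand with an unadjusted p under 0.05 in that direction. Both passed with quantile normalisation (-0.35, adjusted p = 0.00988, and 0.28, adjusted p = 0.0275) and with array weights. Wnt2 also passed with median centring, and Wnt11 without control replicate 1 (0.36, adjusted p = 0.0294), after normexp correction before quantile normalisation, and on the spike-in scale. Wnt1, Wnt2b, Wnt8b, Wnt10b and Wnt16 were not tested, since none was well above background throughout a group. Under spike-in scaling, 3 ligands passed as lower and 2 as higher, where 22.5% of all genes passed, 84.1% of these as higher. With slide as a block, 3 passed as lower and 0 as higher, where 7.84% of all genes passed, 34.3% of these as higher.

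Porcn, the acyltransferase that lipid-modifies WNT proteins so that they can be secreted, did not pass. Its log2 level was -0.32, -0.23 and -0.12 in controls and -0.16, -0.08 and 0.08 with BRG1 siRNA, a change of 0.17 (95% interval -0.04 to 0.38). The groups overlapped. It passed as higher only with spike-in scaling (0.37, adjusted p = 0.0414).

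Among the 12 receptor genes, all of them tested, 5 fell and 1 rose (50% passed, against 23.3% of all genes). Fzd7, a main Frizzled of ES cells, had log2 levels of 1.29, 1.34 and 1.35 in controls and 0.90, 0.92 and 0.95 with BRG1 siRNA on its brighter probe (change -0.41 ± 0.039, adjusted p = 0.00285). Fzd2, a receptor that can couple to either branch of the pathway, rose from 0.51, 0.61 and 0.64 to 0.97, 0.92 and 0.94 on its brighter probe (change 0.36 ± 0.050, adjusted p = 0.00709). Its other probe was not well above background on any array and was not tested. On the brighter probes of both genes the arrays of a group lay close together and the groups were apart. The second Fzd7 probe behaved otherwise: it read -3.57, -3.80 and -3.76 in controls and -3.39, -3.70 and -3.74 with BRG1 siRNA, with overlapping groups and a change of 0.10 (95% interval -0.19 to 0.39). The difference between the 2 Fzd7 probes within arrays was 0.50 (0.18 to 0.83) but did not pass over all probe pairs (adjusted p = 0.143), and the mean of both probes gave -0.15 with an adjusted p of 0.129.

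The dimmer Fzd7 probe (chr1:59735681-59735740, plus strand of mm7) and the brighter Fzd2 probe (chr11:102715340-102715399, plus strand) hold a shared stretch of 14 bases. They match at 42 of the 50 bases that overlap when aligned without gaps. The brighter Fzd7 probe lies further along the same strand at chr1:59737506-59737565. The first 2 are printed whole, with the shared stretch in capitals, and the third by its bases 1 to 30, because the call on Fzd7 rests on its brighter probe and the dimmer one resembles the probe of Fzd2. Whether RNA of one gene binds the probe of the other was not tested.
Fzd2: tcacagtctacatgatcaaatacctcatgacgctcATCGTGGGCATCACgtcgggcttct
Fzd7, dimmer probe: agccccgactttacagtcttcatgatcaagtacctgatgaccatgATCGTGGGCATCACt
Fzd7, brighter probe: aagggaaggtgaacttcaaagtgattctgg

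Fzd10, a β-catenin-coupled Frizzled, read 1.07, 1.01 and 1.04 in controls and 0.68, 0.76 and 0.80 with BRG1 siRNA (change -0.29 ± 0.048, adjusted p = 0.0111). Its second probe changed by -0.06 (95% interval -0.36 to 0.24) with overlapping groups, and the mean of both gave -0.18 (adjusted p = 0.0886). Fzd1 read -2.57, -2.61 and -2.84 in controls and -3.26, -3.10 and -3.39 with BRG1 siRNA (-0.58 ± 0.11, adjusted p = 0.0159). On the brighter Fzd10 probe and on the Fzd1 probe, each BRG1 siRNA array was lower than any control. Fzd3, best known from axon guidance, read -2.95, -3.00 and -3.05 in controls and -3.33, -3.30 and -3.21 with BRG1 siRNA (-0.28 ± 0.052, adjusted p = 0.0169), and its second probe gave -0.27 without passing. Lrp5, a co-receptor for β-catenin signalling, read -0.54, -0.79 and -0.77 in controls and -1.02, -0.99 and -0.94 with BRG1 siRNA (-0.29 ± 0.078, adjusted p = 0.0495). It lay just inside the threshold, with no overlap between groups. Its paralogue Lrp6 read -3.28, -3.21 and -3.25 in controls and -3.12, -2.95 and -3.31 with BRG1 siRNA, with overlap and a change of 0.12 (95% interval -0.12 to 0.36).

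The receptor calls differed in how far they held. Fzd7 and Fzd10 passed with slide as a block (-0.43, adjusted p = 0.0321, and -0.36, adjusted p = 0.040), while Fzd2 just missed there (0.39, adjusted p = 0.0512). The calls on Fzd1, Fzd3 and Lrp5 were lost with that block (adjusted p = 0.096, 0.0611 and 0.155) and when single arrays were left out. Leaving out control replicate 1, control replicate 2 or BRG1 siRNA replicate 1 gave 0.0505 to 0.0699 for Fzd1; any array but BRG1 siRNA replicate 3 gave 0.0544 to 0.0709 for Fzd3, and any of the 6 gave 0.0603 to 0.140 for Lrp5. Fzd10 was lost only without control replicate 3 (0.0576) among these fits. Under spike-in scaling 0 receptors passed as lower and 2 as higher, and under median centring 1 as lower and 0 as higher. Of all genes 22.5% and 9.76% passed in these settings, with 84.1% and 48.0% of those calls higher. The 6 receptors that did not pass differed by at most 1.18-fold.

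**Figure D2:**
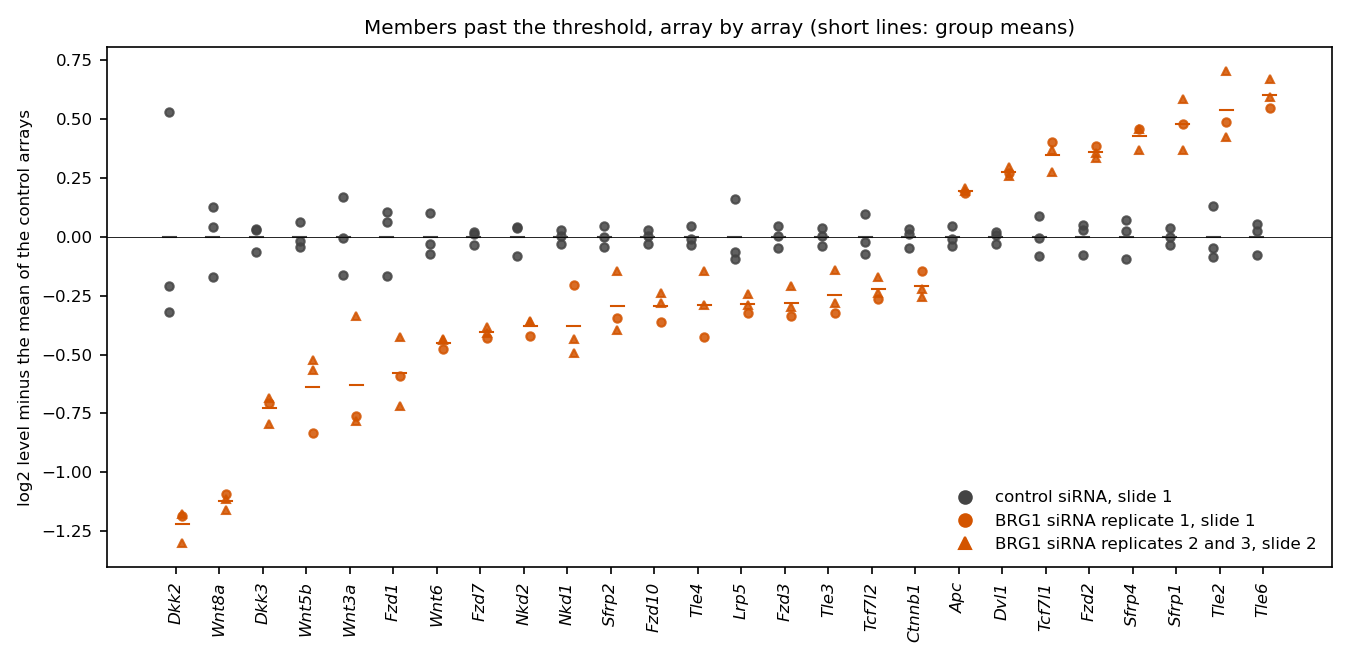
Each of the 26 genes that passed is shown array by array as its log2 level minus the mean of its 3 control arrays, ordered by change, with circles for slide 1 and triangles for slide 2. The BRG1 siRNA arrays (orange) lie all on one side of the controls (grey) in every gene. The genes were picked by a test on these same arrays, which favours such separation. In Nkd1 the BRG1 siRNA array on the controls' slide is nearest to the controls.

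Extracellular antagonists, counted with the membrane-bound Dickkopf receptor Kremen1, moved in both directions: of 8 tested, 3 fell and 2 rose. The share that passed was 62.5%, against 23.3% of all genes. This counts Dkk2, which was tested on account of its control arrays alone. Of the 7 antagonists above background on all 6 arrays, 4 passed. Dickkopf proteins block LRP5 and LRP6, whereas Sfrp proteins bind WNT proteins themselves. Dkk3, the divergent Dickkopf that does not act as a standard LRP blocker, read -3.55, -3.54 and -3.64 in controls and -4.28, -4.26 and -4.37 with BRG1 siRNA (change -0.73 ± 0.052, adjusted p = 0.00157). The spread within each group was small beside the gap between them. Dkk2 read -3.89, -4.74 and -4.63 in controls and -5.60, -5.60 and -5.72 with BRG1 siRNA (change -1.22 ± 0.23, adjusted p = 0.0171). Its probe was well above background on 3 control arrays but on 1 of 3 BRG1 siRNA arrays, so the lower level is poorly measured; the adjusted p was 0.0576 and 0.0639 when BRG1 siRNA replicate 1 or 2 was left out. Dkk1, the classical LRP blocker, did not pass (change -0.12, 95% interval -0.35 to 0.10).

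Sfrp1, the family member with the highest change, rose on both of its probes. The brighter read 1.07, 1.03 and 1.00 in controls and 1.52, 1.62 and 1.40 with BRG1 siRNA (change 0.48 ± 0.066, adjusted p = 0.00689). The dimmer read -3.57, -3.84 and -3.80 in controls and -3.18, -3.32 and -3.35 with BRG1 siRNA (0.46, adjusted p = 0.0221 over all probes). Neither probe had overlapping groups. Sfrp4 rose from 0.04, 0.21 and 0.16 to 0.60, 0.60 and 0.50 (0.43 ± 0.060, adjusted p = 0.00728), again with no overlap. Sfrp2 went the other way, from -0.59, -0.63 and -0.54 to -0.93, -0.98 and -0.73 (-0.30 ± 0.076, adjusted p = 0.0419). The call on Sfrp2 was lost without any single array except BRG1 siRNA replicate 3 (adjusted p = 0.103 to 0.141). With slide as a block Dkk3 passed (-0.71, adjusted p = 0.0274), while Sfrp1 (0.48, adjusted p = 0.0602), Sfrp4 (0.46, adjusted p = 0.0534), Dkk2 (-1.18, adjusted p = 0.11) and Sfrp2 (-0.35, adjusted p = 0.126) kept their size without passing. Under spike-in scaling 2 antagonists passed as lower and 2 as higher, and under median centring 2 as lower and 1 as higher. Among all genes 22.5% and 9.76% passed there, 84.1% and 48.0% of them as higher. Dkk4 and Wif1 were not above background on any array and were not tested.

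Of the 9 cytoplasmic components, 3 fell and 2 rose (55.6% passed, against 23.3% of all genes). Ctnnb1, which encodes β-catenin, fell slightly on its brightest probe, from 4.38, 4.44 and 4.46 in controls to 4.28, 4.21 and 4.17 with BRG1 siRNA (change -0.21 ± 0.049, adjusted p = 0.0336, or 1.15-fold). BRG1 siRNA replicate 1 lay nearest to the controls. Its other 2 probes gave -0.12 and 0.02 and did not pass, and the mean of the 3 gave -0.10 (adjusted p = 0.229). The call was also lost with slide as a block (-0.14, adjusted p = 0.201) and without any single array other than BRG1 siRNA replicate 1 (adjusted p = 0.0584 to 0.130). Apc, the scaffold of the destruction complex, read 0.48, 0.45 and 0.54 in controls and 0.68, 0.69 and 0.70 with BRG1 siRNA (0.20 ± 0.041, adjusted p = 0.023). Only 1 of its 6 probes passed. The other 5 ranged from -0.43 to 0.35, their mean with the first gave 0.04 (adjusted p = 0.814), and the call was lost without any single array except BRG1 siRNA replicate 3 (0.0624 to 0.0891).

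The remaining core of the destruction complex gave no call. Axin1 read 0.70, 0.77 and 0.73 in controls and 0.92, 0.89 and 0.75 with BRG1 siRNA, overlapping at the last array (change 0.12, 95% interval -0.02 to 0.27); it passed without BRG1 siRNA replicate 3 (0.17, adjusted p = 0.0494) and with array weights. Gsk3b, the kinase that marks β-catenin for destruction, read -1.72, -1.74 and -1.82 in controls and -1.75, -1.84 and -1.83 with BRG1 siRNA, and its groups overlapped. Its change was -0.04 (95% interval -0.16 to 0.08), and its sign turned with the scaling.

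Dishevelled proteins relay the signal from Frizzled, and Naked cuticle proteins bind Dishevelled and restrain it. Dvl1 rose from 1.13, 1.09 and 1.15 to 1.39, 1.38 and 1.42 (change 0.27 ± 0.038, adjusted p = 0.00711), and its second probe gave 0.31 (adjusted p = 0.0519 over all probes). Dvl2 and Dvl3 did not pass. Nkd2 fell from -1.49, -1.37 and -1.36 to -1.83, -1.77 and -1.77 (-0.38 ± 0.051, adjusted p = 0.00661). Nkd1, itself a well-known β-catenin target, fell from -1.60, -1.57 and -1.63 to -1.80, -2.09 and -2.03 (-0.38 ± 0.083, adjusted p = 0.027). The groups did not overlap in either gene, but in Nkd1 the array on the controls' slide showed a smaller change: with slide as a block it was -0.20 (adjusted p = 0.105), against -0.42 (adjusted p = 0.0449) for Nkd2. Leaving out any array but BRG1 siRNA replicate 1 also ended the Nkd1 call (0.0603 to 0.097). Under spike-in scaling 0 cytoplasmic components passed as lower and 2 as higher, and under median centring none passed in either direction. The shares of all genes that passed were 22.5% and 9.76%, of which 84.1% and 48.0% were higher.

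Of 8 nuclear factors tested, 3 rose and 3 fell (75% passed, against 23.3% of all genes). The even split depended on the setting: with the replicate number as a block 3 passed as higher and 0 as lower. Tcf7l1, the repressive TCF of ES cells, rose on its brighter probe from 3.83, 3.74 and 3.66 to 4.15, 4.11 and 4.02 (change 0.35 ± 0.062, adjusted p = 0.015), with no overlap. Its other probe read 2.20, 2.02 and 2.08 in controls and 1.94, 1.94 and 2.29 with BRG1 siRNA, with overlap and a change of -0.04 (95% interval -0.32 to 0.24). The difference between these 2 probes, -0.39 (-0.72 to -0.05), did not pass over all probe pairs (adjusted p = 0.204), and the mean of both gave 0.15 (adjusted p = 0.145). Leaving out control replicate 2, control replicate 3, BRG1 siRNA replicate 1 or BRG1 siRNA replicate 2 put the adjusted p of the brighter probe at 0.0541 to 0.0657. Tcf7l2, a TCF that can activate or repress, fell from 0.16, -0.01 and 0.04 to -0.20, -0.17 and -0.11 (-0.22 ± 0.060, adjusted p = 0.0466) and lost its call without any 1 of the 6 arrays (0.0534 to 0.138). None of its 4 probes passed in the fit of single probes. Tcf7, the activating TCF of lymphocytes and ES cells, read 0.19, 0.32 and 0.31 in controls and 0.23, 0.31 and 0.10 with BRG1 siRNA, with overlap (95% interval -0.24 to 0.11).

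The brighter Tcf7l1 probe (chr6:72645159-72645218, minus strand of mm7) shares 18 bases with a Tcf7l2 probe (chr19:55846946-55847005, plus strand) that changed by -0.12 without passing. The other Tcf7l1 probe, chr6:72644314-72644373, lies further downstream on the minus strand and carries AATAAA near its end. Stretches of 30 bases are shown, with the shared bases of the first pair and the hexamer of the third in capitals, because the call on Tcf7l1 rests on the brighter of its 2 probes.
Tcf7l1, brighter probe: agcattATTGGTCAATATTTGACCactctg
Tcf7l2: gagttcATTGGTCAATATTTGACCcattct
Tcf7l1, other probe: tattttcacaagagaaAATAAAattacagt

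Groucho/TLE proteins are known as co-repressors that TCF proteins recruit. Tle6 rose the most of all 51 genes, from 0.74, 0.63 and 0.76 to 1.26, 1.38 and 1.30 (change 0.60 ± 0.057, adjusted p = 0.00278, or 1.52-fold). It belongs to the set by name, and a part of it in repression was not tested. Tle2 rose from -2.85, -2.89 and -2.67 to -2.32, -2.38 and -2.10 (0.54 ± 0.097, adjusted p = 0.0153). In both, every BRG1 siRNA array exceeded every control. Tle4 fell from 5.86, 5.77 and 5.80 to 5.38, 5.52 and 5.66 (-0.29 ± 0.079, adjusted p = 0.0495), and Tle3 fell from 0.88, 0.83 and 0.91 to 0.55, 0.59 and 0.73 (-0.25 ± 0.061, adjusted p = 0.0369). The second Tle3 probe changed by -0.09 (adjusted p = 0.316 over all probes), and its groups overlapped. The calls on Tle4 and Tle3 were lost without any single array except BRG1 siRNA replicate 3 (0.0964 to 0.139 for Tle4, 0.0919 to 0.133 for Tle3), and that of Tle2 without control replicate 1 or 2 (0.0515 and 0.0659). Tle6 passed with slide as a block (0.55, adjusted p = 0.0357), and no other nuclear factor did. Under spike-in scaling, and under median centring too, 3 nuclear factors passed as higher and 0 as lower. Calls among all genes came to 22.5% and 9.76% there, with 84.1% and 48.0% of them higher.

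Tle1 did not pass through its brightest probe (change -0.03), but 1 of its 3 probes passed in the fit of single probes. That probe (chr4:71551983-71552042, minus strand of mm7) read 0.25, 0.29 and 0.31 in controls and 0.43, 0.50 and 0.54 with BRG1 siRNA (0.20, adjusted p = 0.0363). It shares 12 bases with the Tle2 probe (chr10:81385483-81385542, plus strand), which also rose, and matches it at 35 of 42 bases without gaps. The pair is shown with the shared bases in capitals, since a probe of each gene rose; binding of one gene's RNA to the other's probe was not tested.
Tle1: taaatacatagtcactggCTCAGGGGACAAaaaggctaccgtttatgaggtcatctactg
Tle2: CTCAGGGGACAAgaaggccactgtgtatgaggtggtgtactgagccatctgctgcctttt

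Probes of one gene were compared over the whole set. Of the 88 probes 76 were tested one by one, and 25 passed (10 higher, 15 lower), against 19.6% of all probes tested. In 17 genes a second tested probe could be set against the brightest one within the same arrays, giving 25 pairs, of which 18 changed with the same sign. In limma 0 of the 25 pairs differed past the threshold, against 0.295% of all such pairs on the array, and 5 had an unadjusted p under 0.05 (Wnt6, Fzd7, Apc, Ctnnb1 and Tcf7l1). Sfrp1 was the one gene in which 2 probes passed in the same direction, and the 7 pairs of opposite sign came from Fzd7, Tcf7l1, Ctnnb1, Apc, Tcf7 and Tle1. Among 3052 pairs of probes of different genes in the set, 3 shared a run of at least 12 bases, and these are the 3 pairs printed above; probes on 1 chromosome were left out of this search.

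**Figure D3:**
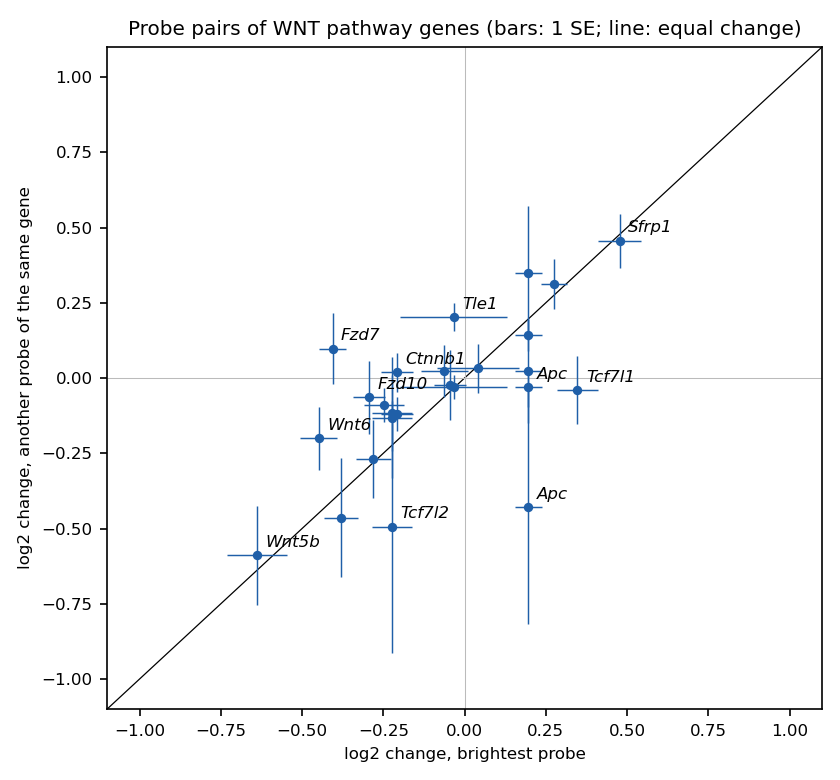
The log2 change of each gene's brightest probe (horizontal) is set against that of another probe of the same gene (vertical) for the 25 pairs, with bars of 1 SE and a line of equal change. Sfrp1 and Wnt5b lie near the line, while Fzd7 and Tcf7l1 lie off it with changes of opposite sign.

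The slide layout limits these calls. With slide as a block 8 of the 51 tested genes passed (15.7%), against 7.84% of all genes, and all 8 were among the 26: Wnt5b (-0.83, adjusted p = 0.0189), Dkk3 (-0.71, 0.0274), Wnt8a (-1.09, 0.0292), Fzd7 (-0.43, 0.0321), Tle6 (0.55, 0.0357), Fzd10 (-0.36, 0.040), Nkd2 (-0.42, 0.0449) and Wnt6 (-0.48, 0.0468). Of these, 7 were lower and 1 was higher. Wnt5b, Wnt8a, Dkk3 and Tle6 passed in every setting run except slide 1 alone, in which BRG1 siRNA replicate 1 stood by itself against the controls. Their changes in that fit had the same sign, which followed from groups that did not overlap. Leaving out each array in turn, 11 of the 26 genes passed in all 6 fits. How many of all genes that passed did the same was not counted. In the single fits 24.1% to 45.1% of the members tested passed, against 9.19% to 24.8% of all genes.

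**Figure D4:**
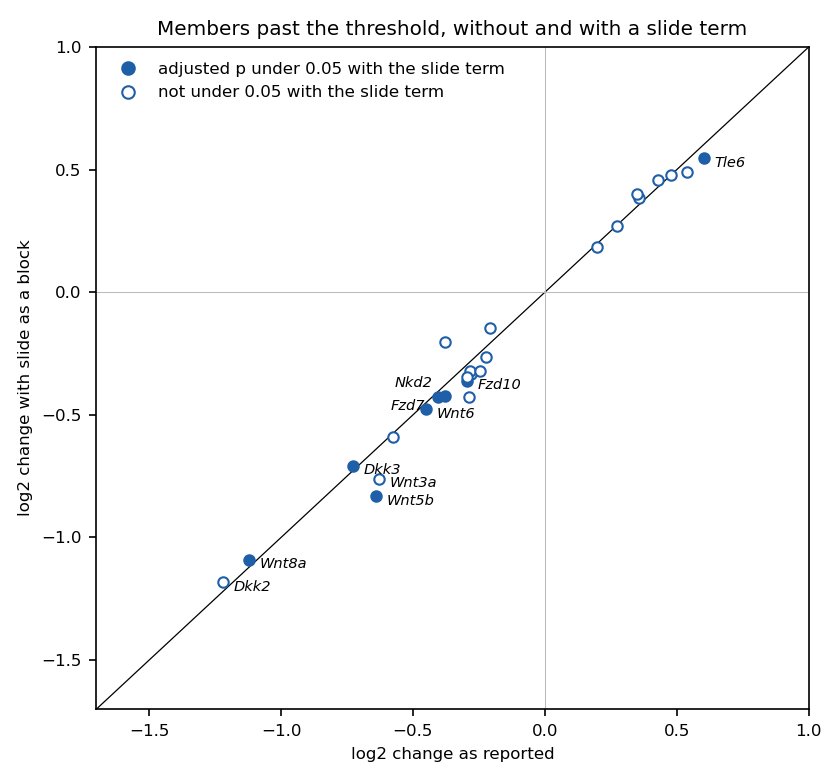
For the 26 genes that passed, the log2 change as reported (horizontal) is plotted against the change in the fit with slide as a block (vertical), and filled points passed there too. All 26 points keep their sign and most lie near the line of equal change. BRG1 siRNA replicate 1 enters both axes and the groups of these genes did not overlap, so the shared sign was given beforehand. The 8 filled points are the genes named in the text.

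Promoters of the set were searched for the TCF/LEF motif, taken as CTTTGAA or with its last bases changed, namely CTTTGAT besides the forms CTTTGTA and also CTTTGTT, on either strand, from 250 bases before to 50 after the gene's start (RefSeq, GRCm38.p6). The table held 40 of the 58 genes, and 5 of these (12.5%) had a match, against 18.9% of all its genes. Matches were in 3 of 14 genes that fell (Wnt5b, Fzd7 and Tcf7l2), 0 of 4 that rose, and 2 of 16 that did not pass (Wnt11 and Dkk1). Such a match is a string of letters in a window and shows no binding. The 250 bases before the start are printed for Fzd7 (chr1:59481897-59482146, plus strand) and Wnt5b (chr6:119449387-119449636, minus strand), which fell in the data and passed with slide as a block, with the matched letters in capitals.
Fzd7 promoter: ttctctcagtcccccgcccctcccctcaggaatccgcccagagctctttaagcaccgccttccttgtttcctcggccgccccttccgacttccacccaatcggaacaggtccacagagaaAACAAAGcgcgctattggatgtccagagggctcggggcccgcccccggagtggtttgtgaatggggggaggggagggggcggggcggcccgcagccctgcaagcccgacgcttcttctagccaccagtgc
Wnt5b promoter: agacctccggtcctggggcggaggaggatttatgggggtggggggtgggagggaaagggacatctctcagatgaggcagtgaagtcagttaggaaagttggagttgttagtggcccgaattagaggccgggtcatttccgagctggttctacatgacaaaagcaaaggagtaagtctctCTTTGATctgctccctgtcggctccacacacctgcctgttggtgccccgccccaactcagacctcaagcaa

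Other WNT machinery, from a list of 65 names outside the set, was tested in the same fit. Of 62 found, 52 were tested, of which 16 fell and 4 rose. Among all genes tested 13.4% fell and 9.87% rose. The median change of the 52 was -0.12, below that of all genes. The genes that fell the most were Lef1, the partner of β-catenin on target genes, from 0.03, 0.07 and 0.08 to -1.16, -0.98 and -0.73 (change -1.02, adjusted p = 0.00387), and Dact2, a modulator of Dishevelled, from 1.43, 1.58 and 1.47 to 0.62, 0.65 and 0.55 (-0.89, adjusted p = 0.00139). Axin2, a feedback inhibitor that β-catenin switches on, went from -1.25, -1.23 and -1.16 to -1.87, -2.09 and -1.89 (-0.73, adjusted p = 0.00299). Lef1, Dact2 and Axin2 also passed with slide as a block (-1.22, -0.87 and -0.65, adjusted p = 0.0216, 0.0242 and 0.0374). Lypd6, an enhancer of WNT signalling at the receptor, fell by 0.73 (adjusted p = 0.0304), a call lost with that block (-0.40) and without any single array except BRG1 siRNA replicate 1 (0.0603 to 0.106).

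The 4 genes that rose were Btrc (change 0.48), the ubiquitin ligase subunit that recognises phosphorylated β-catenin, Cxxc5 (0.32), which restrains Dishevelled, Csnk1g1 (0.31), a casein kinase, and Senp2 (0.17), a SUMO protease. Btrc was the one of these that passed with slide as a block (0.56, adjusted p = 0.0337). The call on Senp2 was lost without any single array except BRG1 siRNA replicate 3 (0.0871 to 0.105). Under spike-in scaling the list had 6 lower and 7 higher, where 84.1% of the calls among all genes were higher.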

How the data were processed

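Spot intensity, linear and single-colour, was taken from the deposited scanner files. Scans of array design 014868 were read with Feature Extraction 9.5.3.1 (Agilent), per the file headers, and the processed signal used here is background-subtracted within the array and not normalised between arrays. The deposited value table equals that signal (largest difference 0). From it, log2 minus each array's 75th percentile over non-control spots was taken. Outlier spots (387 on at least 1 array) were left out, and spots of a probe were averaged. The brightest probe stands for a gene. Group means were tested two-sided in R 4.3.3 by limma 3.58.1 with moderated variances (eBayes), Benjamini-Hochberg over all genes or all probes, threshold 0.05; the script was tested on simulated data.

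RefSeq names matched 55 of 58 genes by accession. Coordinates are those of the array (mm7), for which no gene annotation was used here. Array values are given for each gene that passed and for the core components; others are named where their change was largest. The members and lists were chosen with earlier results of these data known. The test of probe pairs was added after seeing the data. The replicate numbers did not pair the arrays: deviations of same-numbered arrays correlated at -0.31, 0.11 and -0.02. Alternatives were other scalings, background corrections, filters, probe summaries, blocks, weights, and leaving out each array. The number of arrays limits the precision.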

Additional observations from a re-analysis of the deposited data

How the results depend on the processing

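None of the 26 genes changed sign in the 20 settings run (19 for Dkk2). Their groups did not overlap, so fits with a block or fewer arrays could hardly turn a sign. The cause of the differences below was not tested. Members passing (26 as reported) were 12 with median centring, 17 with spike-in scaling, 12 with no filter on dim probes, 8 with slide as a block, 0 with slide 1 only and 13 to 23 without 1 array. With the replicate block 15 passed. All genes passing (4139) were 1734 with median centring, 1740 with no filter, 1392 with slide as a block, 61 with slide 1 only, 1945 with the replicate block, 6946 with array weights and 1641 to 4411 without 1 array. Single probes of members passing (25) were 12, 11, 6, 0 and 14 with median centring, no filter, slide block, slide 1 only and replicate block, and 11 to 24 without 1 array. Other machinery passing (20) was 9, 13, 13, 11, 1 and 12 with median centring, spike-in scaling, no filter, slide block, slide 1 only and replicate block, and 13 to 18 without 1 array. The members' median was 0.0083 with median centring, 0.15 with spike-in scaling, -0.076 with no filter, -0.079 with slide as a block and with slide 1 only, -0.090 with array weights and -0.14 to -0.025 without 1 array. Smarca4 changed by -0.54 (adjusted p = 0.0726) with slide 1 only. Genes that did not pass and turned sign were Gsk3b (0.0083 with median centring, 0.15 with spike-in scaling, 0.0072 with slide as a block and with slide 1 only) and Tcf7 (0.14 with spike-in scaling). Fewer arrays or a slide term leave fewer residual degrees of freedom. Of the 51 tested genes 49 were above background on all 6 arrays. In a fit of such probes alone 25 of the 49 passed (51.0%), against 26.2% of all genes. With no filter on dim probes 20.7% of the members passed, against 6.22% of all genes. Beyond these filters the part of dim signal was not tested.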
